A study of Mus musculus with 22 samples.

Results

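The comparison described here is the effect of VHL loss on CD8 T cells taken from the spleen at day 7. It rests on 4 of the 22 RNA-seq libraries of the series, chosen by their labels alone: 2 VHL-deficient and 2 wild-type (WT) libraries of day 7 spleen. All cells were P14 CD8 T cells, which carry a transgenic T cell receptor for a peptide of the lymphocytic choriomeningitis virus glycoprotein, from C57BL/6 mice aged 6 to 12 weeks. The whole series holds 10 groups of P14 cells from spleen and tumor, of which 2 tumor settings are used below for comparison: the unsplit day 7 tumor cells (2 VHL-deficient and 2 WT libraries), that is cells not divided into resident-memory-like and other fractions, and the day 11 tumor cells (3 and 3). The series description gives 5 mice per biological replicate, without saying whether their cells were pooled in a library. The labels do not say how Vhl was deleted, which tumor was used or whether the spleens came from tumor-bearing mice. Beyond the 5 mice per biological replicate, nothing says which animals the libraries of a group came from. The p-values measure only the spread between libraries of the same group, which may be technical. That spread was estimated for each gene over all 10 groups and 22 libraries, of which 4 were from spleen.

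VHL is the substrate-binding subunit of a ubiquitin ligase that removes the alpha subunits of the hypoxia-inducible factors (HIFs) when oxygen is present. The prolyl hydroxylases EGLN1, EGLN2 and EGLN3 mark those subunits for VHL by hydroxylating them in an oxygen-dependent reaction. Without VHL the alpha subunits persist at normal oxygen, pair with ARNT and bind short DNA elements with the core ACGTG or GCGTG near genes of glycolysis, glucose and lactate transport, mitophagy, collagen modification and angiogenesis. In CD8 T cells this pathway is known for its link to glycolytic effector metabolism.

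The labels and the data were checked first. Vhl (chr6:113623959-113631633, mm10, plus strand) had 9 and 11 reads in the 2 VHL-deficient spleen libraries and 99 and 106 reads in the WT libraries. In scaled counts, which are reads divided by the size factor of their library, these were 20.1 and 9.02 against 138 and 111. The groups did not overlap, and Vhl fell by 3.10 on the log2 scale (SE 0.80, limma with Benjamini-Hochberg adjustment, adjusted p = 0.0361), a call that was lost when any 1 of the 4 spleen libraries was left out. The 4 spleen libraries held 3375558 to 7484400 reads, of which ribosomal RNA took 29.0% to 42.3%. The shallowest was VHL-deficient replicate 1 and the deepest VHL-deficient replicate 2. Cd8b1, the CD8 beta chain, had 16376 and 12749 scaled counts in VHL-deficient and 7467 and 6489 in WT libraries, and the T cell kinase gene Lck had 8390, 8120, 8758 and 8588. Several defining markers of other cells were at or near 0: Ms4a1 and Pax5 of B cells reached at most 2.10, Ncr1 of NK cells at most 1.39, and Cd14, Fcgr1 and C1qa of macrophages had no read in any of the 4. Of the 10 marker lists of other cell types, 2 had a single member that rose (Fcgr3 of macrophages, and Ctla4 of CD4 T cells, which activated CD8 T cells also express) and 2 had members that fell (Ighm of B cells, and Cd7 and Klri2 of NK cells). The summed level of the macrophage list was 71.5 and 73.0 in VHL-deficient against 27.8 and 51.3 in WT libraries, and that of the B cell list was 639 and 595 against 1234.3 and 1192, with 1042 and 1070 of the WT sums from Ighm. Its member Cd79b, a chain of the B cell receptor complex, ran the other way, with 306 and 267 against 173 and 99.5, and was not called (log2 difference 1.12, limma, adjusted p = 0.275). The stroma and endothelium sum was 226 and 293 against 430 and 441, nearly all of it Pecam1, which T cells can also express. The dendritic cell sum overlapped between the groups, at 860 and 1156 against 932 and 1283, and most of it was Itgax, which activated CD8 T cells also express. Their part in the results below was not tested.

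The HIF core element can be read in the sequence before the start of several of the genes that rose most. The stretches below come from the 250 bases before the RefSeq start (build GRCm38.p6, which is mm10), in the direction of the gene, with every ACGTG and GCGTG on either strand in capitals. They are shown for genes whose changes carry the result: a lactate exporter, a mitophagy receptor, a glycolytic enzyme, a collagen prolyl hydroxylase, a HIF prolyl hydroxylase and a glycogen phosphorylase.

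Slc16a3, chr11:120949020-120949066, plus strand: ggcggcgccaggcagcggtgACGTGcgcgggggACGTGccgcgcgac
Bnip3, chr7:138909517-138909643, minus strand: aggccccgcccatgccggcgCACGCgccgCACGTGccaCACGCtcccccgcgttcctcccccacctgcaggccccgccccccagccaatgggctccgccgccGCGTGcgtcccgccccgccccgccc
Pgk1, chrX:106186930-106186993, plus strand: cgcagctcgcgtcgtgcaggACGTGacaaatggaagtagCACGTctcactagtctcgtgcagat
P4ha2, chr11:54100797-54100879, plus strand: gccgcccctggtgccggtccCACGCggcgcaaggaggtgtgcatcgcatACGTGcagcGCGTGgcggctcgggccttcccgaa
Egln3, chr12:54204079-54204123, minus strand: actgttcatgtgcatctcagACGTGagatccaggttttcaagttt
Pygl, chr12:70227721-70227834, minus strand: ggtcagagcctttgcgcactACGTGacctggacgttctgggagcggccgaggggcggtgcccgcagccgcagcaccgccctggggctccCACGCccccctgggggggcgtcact

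Across the 2 hypoxia-response lists used below, the stricter core ACGTG stood in this window for 10 of the 20 glycolysis genes with a RefSeq promoter (50%) and for 15 of the 24 other targets (62.5%). It stood in 25.3% of the 9538 tested genes with a RefSeq promoter, where a gene with several starts counted once, and in 16.6% of all 32851 windows of that length. With GCGTG counted as well, the shares were 90%, 95.8%, 61.1% and 38.6%. Tpi1, Nfil3 and Gzmc, which also rose, had neither core in their windows. For the genes that rose as a whole the check was void, because only 229 of 350 had a RefSeq promoter. Among those 229, ACGTG stood in 34.9% and either core in 60.3%, the latter no higher than the 61.1% of tested genes. The background has the same gap, since 66.6% of the tested genes had a RefSeq promoter. A match is a description of letters, not of a bound site.

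In day 7 spleen, 350 genes rose (2.44% of the 14327 genes tested) and 105 fell (0.733%) with VHL loss. All called genes together were 3.18% of those tested. The genes that rose included many glycolytic and other HIF target genes, and those that fell included interferon-response genes, Ccr7, Btla and Cd7. The median change was 2.68 on the log2 scale among the genes that rose and -2.07 among those that fell, against 0.04 over all tested genes. Of the genes that rose, 347 changed by more than 2-fold and 132 by more than 8-fold. In 41 of them no read was found in either WT library. The groups did not overlap for any of the 455 called genes. Such separation was common with 2 libraries a group: the VHL-deficient values lay above the WT values for 23.7% of all tested genes and below them for 19.8%. Leaving out a library gave 191 genes that rose and 39 that fell without VHL-deficient replicate 1, and 216 and 120 without the second one. They were 233 and 30 when the first WT library was dropped and 251 and 29 when the second one was. When each of the 4 was left out in turn, 142 of the 350 genes that rose and 10 of the 105 that fell were called every time. With limma's voom on the recovered reads, a fit added after the data were seen, 135 genes rose and 41 fell.

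**Figure D1:**
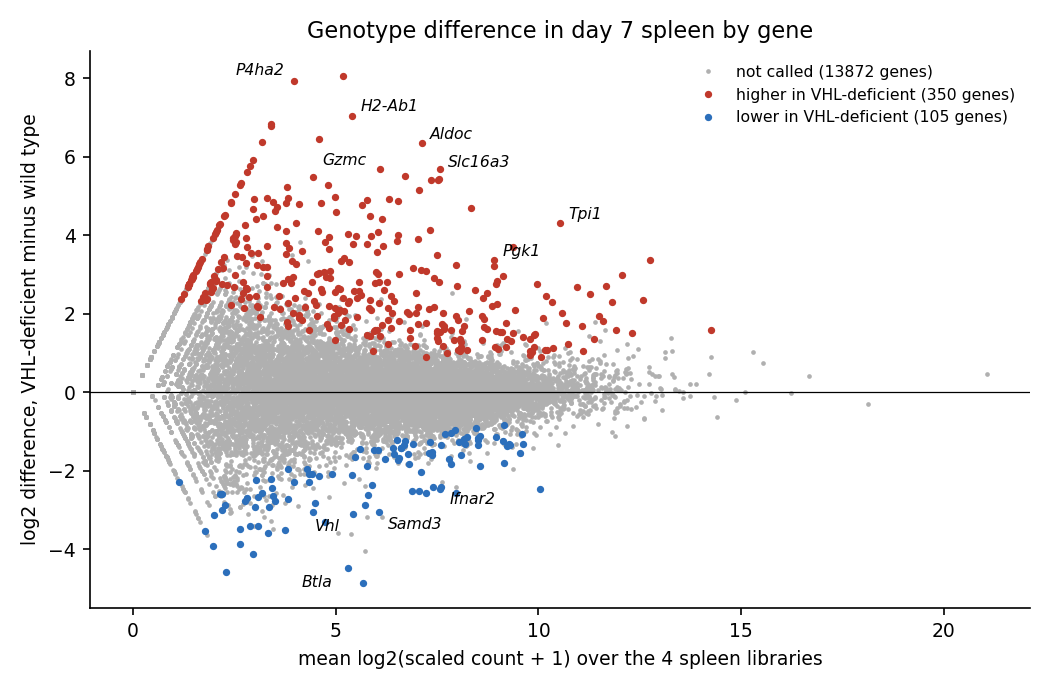
Genotype difference of each tested gene in day 7 spleen. The x axis is the mean log2(scaled count + 1) over the 4 spleen libraries and the y axis the log2 difference, VHL-deficient minus WT; red points are the 350 genes that rose, blue points the 105 that fell and grey points the genes not called. Higher calls reach larger differences than lower calls, and the straight edges at the left are genes with few or no reads in one group.

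Glycolysis genes rose together. Of the 21 tested genes of the glycolysis list, 15 rose and none fell, with a median difference of 2.45 on the log2 scale. All 21 were higher in VHL-deficient cells, and the groups did not overlap for 18. Over all tested genes 2.44% rose and 0.733% fell, and the VHL-deficient values lay above the WT values for 23.7%. The same shares are the background for every list below. All 15 kept their call when each spleen library was left out in turn. Slc16a3 encodes MCT4, which exports lactate. It had 1301 and 1400 scaled counts in VHL-deficient spleen cells and 30.6 and 20.9 in WT cells, a rise of 5.68 (SE 0.30, limma, adjusted p = 1.25e-10). Aldoc, an aldolase isoform, had 1205 and 1308 against 32.0 and 6.29, a rise of 6.34 (SE 0.47, limma, adjusted p = 3.02e-08). Both VHL-deficient libraries lay close together for these genes and far above both WT libraries.

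The enzymes of the common pathway followed in the same direction. Glucose entry was represented by Slc2a1, which encodes the transporter GLUT1 and had 840 and 870 scaled counts against 131 and 152 (log2 difference 2.59). Hk2, which phosphorylates glucose, had 358 and 330 against 18.1 and 29.3 (log2 difference 3.84). Aldoa, which splits fructose bisphosphate, had 24464 and 20389 against 2378 and 1938. These genes all passed the test, and none of their groups overlapped. Tpi1, triose phosphate isomerase (chr6:124810586-124814296, minus strand), had 6846 and 6262 scaled counts against 380 and 285, a rise of 4.31 (SE 0.32, limma, adjusted p = 3.02e-08). Pgk1, phosphoglycerate kinase, had 1607 and 1469 against 159 and 140, a rise of 3.36. Ldha, which turns pyruvate into lactate, had 14418 and 13399 against 2968 and 2489, a rise of 2.35 (SE 0.36, limma, adjusted p = 0.000286). The remaining members that rose, Pkm, Gapdh, Eno1, Gpi1, Pfkl, Pgam1 and Pfkp, rose by 1.69 to 2.75. Pfkp lost its call with voom. Aldoa, Eno1, Gapdh, Pgk1 and Ldha have near-identical processed copies in the mouse genome, and counting could split their reads. The copies Eno1b and Aldoa-ps4 were also called higher, Eno1b by 2.54.

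Not all glycolytic regulators passed the test in spleen. Pdk1, the kinase that keeps pyruvate out of the mitochondrial cycle, had 724 and 906 scaled counts against 287 and 433 (log2 difference 1.20, limma, adjusted p = 0.280). Pfkfb3, Slc2a3, Pfkfb4, Hk1 and Pfkm were also not called, with log2 differences of 0.16 to 1.56. Hk1 had 400 and 748 against 320 and 607, so that its groups overlapped. Some of these calls turned with the libraries that set the spread. Pdk1 and Pfkfb3 were called when the spread came from the 4 spleen or the 8 day 7 libraries alone and with a replicate block (lowest adjusted p = 0.0137 and 0.00922, limma). Slc2a3 was called with the 4 spleen libraries and with the block (lowest adjusted p = 0.00276, limma).

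**Figure D2:**
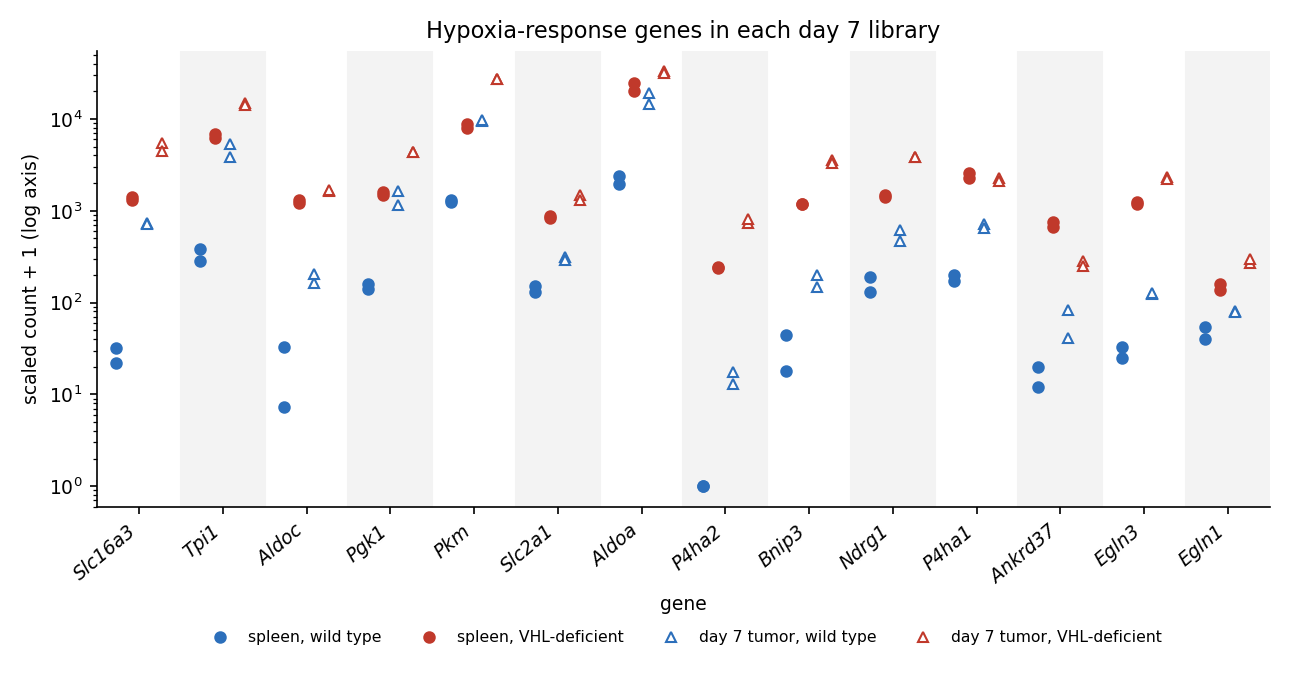
Scaled count plus 1, on a log axis, of 14 hypoxia-response and oxygen-sensing genes in each day 7 library: the 7 glycolysis genes, 5 other targets and 2 oxygen-sensing genes with the smallest p-values in spleen. Circles are spleen and triangles unsplit day 7 tumor libraries, blue WT and red VHL-deficient, with 2 libraries per group. In spleen every VHL-deficient point lies above both WT points for each gene, and P4ha2 had no read in WT spleen.

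Other HIF targets rose as well, in 17 of 29 tested genes, with a median of 1.90 on the log2 scale, and none fell. The shares over all tested genes were 2.44% and 0.733%. P4ha2, a subunit of the enzyme that hydroxylates collagen prolines, had 239 and 243 scaled counts in VHL-deficient cells and no read in either WT library. Against a floor of 3 reads per WT library it was at least 65.9-fold higher. Bnip3, a mitophagy receptor of the outer mitochondrial membrane, had 1187 and 1198 against 43.1 and 16.8, a rise of 5.41 (SE 0.34, limma, adjusted p = 2.31e-09). Ankrd37, an ankyrin-repeat gene and known HIF target, had 755 and 659 against 11.1 and 18.9, a rise of 5.51. P4ha1 and the collagen lysyl hydroxylase gene Plod2 rose by 3.70 and 3.98. Ndrg1, a stress-response gene induced by hypoxia, had 1495 and 1419 against 128 and 189, a rise of 3.22. P4ha1, P4ha2, Plod2, Bnip3, Ankrd37 and Ndrg1 kept their calls under every alternative.

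The secreted growth factor gene Vegfa was low. It had 20.1 and 17.2 scaled counts against no WT read, at least 5.10-fold higher, and Ak4, an adenylate kinase of mitochondria, was at least 22.4-fold higher. Stc2, which encodes a secreted glycoprotein, had 422 and 445 scaled counts against 8.35 and 20.9. Vegfa lost its call with the 4 spleen libraries alone, and Ak4 with voom. Some other calls of the list were lost when spleen libraries were left out. Ddit4 and Fam162a lost theirs without any 1 of the 4 spleen libraries, Mif without any but VHL-deficient replicate 2, Narf without replicate 2 of either genotype, and Tmem45a without VHL-deficient replicate 1 or WT replicate 2. Tmem45a had 2 WT reads, and the ratio of its reads, scaled for depth, was 20.1 (exact 95% interval 5.21 to 172, counting error only). Bnip3l, the paralog of Bnip3, had 637 and 632 against 377 and 398. Its groups did not overlap, but it did not pass the test (log2 difference 0.71, limma, adjusted p = 0.0585). Car9 and Adm, strong HIF targets in epithelia, had fewer than 3 scaled counts in every spleen library.

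Among the 17 oxygen-sensing genes, Egln3, Egln1 and Hif3a rose and Vhl itself fell. Hif3a, an alpha subunit gene, had 26.8 and 30.4 scaled counts against 4.17 and 1.05 (log2 difference 3.18, limma, adjusted p = 0.0485). It lost its call in 14 of 18 alternatives, among them the 3 other scalings and each left-out spleen library. Egln3, a HIF prolyl hydroxylase that is also a HIF target, had 1254 and 1183 scaled counts against 23.7 and 31.4, a rise of 5.43 (SE 0.29, limma, adjusted p = 1.25e-10). Egln1 had 156 and 134 against 39.0 and 53.4, a rise of 1.65 whose call was lost with voom. Egln2, the third family member, had 333 and 386 against 239 and 241 and was not called. The HIF alpha gene Hif1a was not called either, with 277 and 341 against 412 and 511 (log2 difference -0.58, limma, adjusted p = 0.402). Epas1, which encodes HIF-2 alpha, had 103 and 73.8 against 50.1 and 66.0.

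Of 14 glycogen genes, 4 rose and none fell, against 2.44% and 0.733% of all tested genes. Pygl, the liver-type glycogen phosphorylase, had 1006 and 1114 scaled counts against 26.4 and 22, a rise of 5.40 (SE 0.49, limma, adjusted p = 3.73e-07). Pgm2, a phosphoglucomutase, rose by 1.87 and Ppp1r3b, a subunit that brings protein phosphatase 1 to glycogen, by 4.83. Ppp1r3b lost its call without any spleen library but WT replicate 1, and with voom both Pgm2 and Ppp1r3b lost theirs. Ppp1r3g, of the same phosphatase-targeting family and named after its values were seen, had 98.3 and 128 scaled counts and no WT read, at least 30.9-fold higher. The glycogen synthase gene Gys1 had 69.3 and 144 against 45.9 and 77.5 and was not called.

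Genes of mitochondrial metabolism showed no called change in spleen. With 3.18% of all tested genes called, lists of this size would hold few calls at the same share. By limma, none of 27 genes of pyruvate oxidation and the tricarboxylic acid cycle, none of 38 nuclear genes of the respiratory chain, none of 8 genes of the mitochondrial genome and none of 19 fatty acid oxidation genes passed the test. The number with an unadjusted p under 0.05 was 2 for the first list, 2 for fatty acid oxidation and 0 for both respiratory chain lists, and voom called none in any of the 4. Their medians were -0.12, 0.12, -0.18 and 0.01 on the log2 scale, close to the 0.04 of all tested genes. In unsplit day 7 tumor the median of the nuclear respiratory chain genes was -0.55 and that of the mitochondrial genome -1.26, with 2 mitochondrial genes called lower. The genotype by tissue interaction, which tests whether the difference itself differs, was called for no respiratory chain gene (lowest adjusted p = 0.428, limma), and 3 nuclear and 4 mitochondrial ones had an unadjusted p under 0.05. The share of reads on mitochondrial genes was 5.0% and 4.0% in VHL-deficient and 6.68% and 6.07% in WT spleen libraries.

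**Figure D3:**
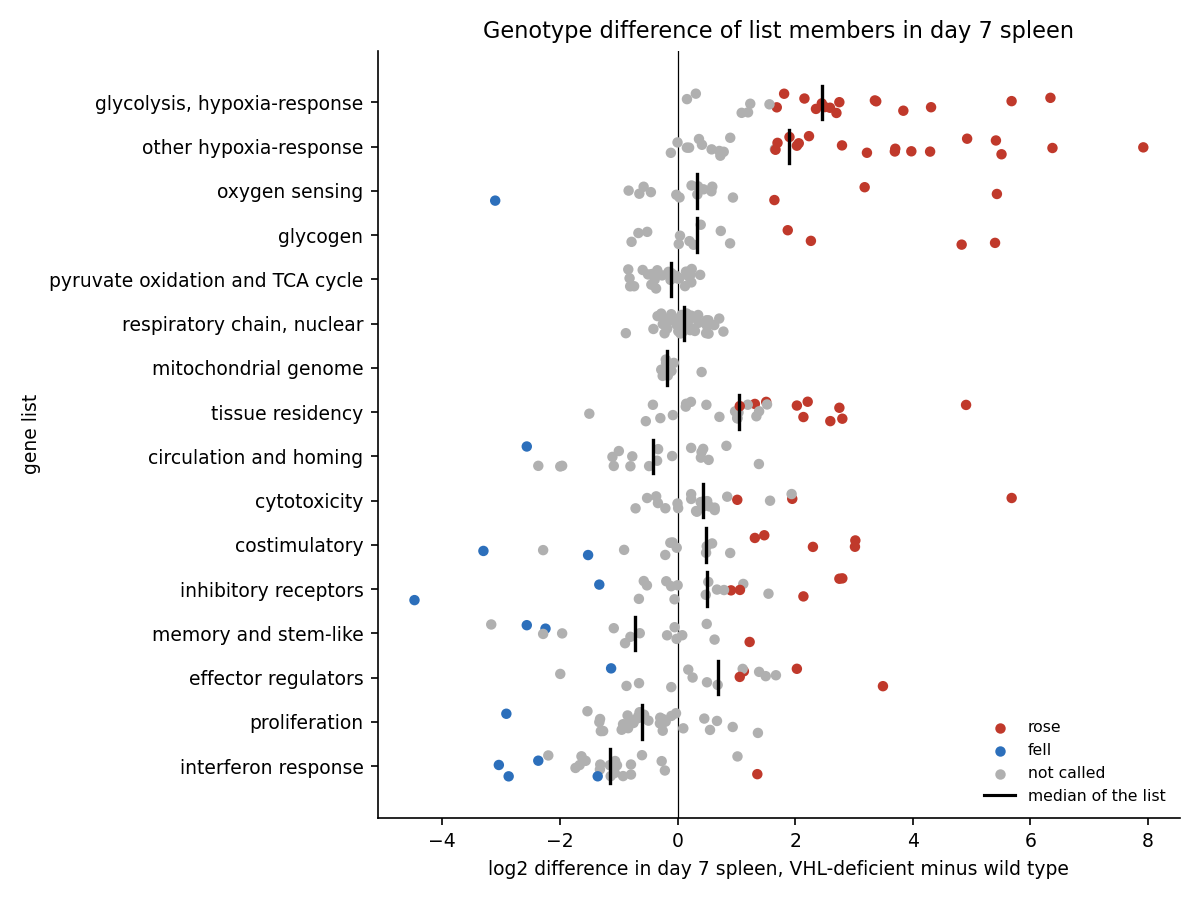
Log2 difference in day 7 spleen, VHL-deficient minus WT, for the tested members of 16 gene lists. Each point is 1 gene, red if it rose, blue if it fell and grey if not called, and the black bar is the median of the list. The 2 hypoxia-response lists stand to the right with medians of 2.45 and 1.90, the metabolic lists of the mitochondrion sit around 0, and the interferon list has a median of -1.14.

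Genes of tissue residency also had many calls. Of 28 tested, 10 rose and none fell, with a median of 1.05. The shares over all tested genes were 2.44% and 0.733%. Runx3, a transcription factor of resident and cytotoxic CD8 T cells, had 1471 and 1112 scaled counts against 657 and 573 (log2 difference 1.06, limma, adjusted p = 0.0478). Bhlhe40, a transcription factor that supports mitochondrial fitness in resident cells and is also a HIF target, had 2841 and 3326 against 725 and 781, a rise of 2.03. Cdh1, which encodes E-cadherin, had 244 and 365 against 6.96 and 11.5, a rise of 4.91 with a wide error (SE 1.29). The other calls were Ctla4, Nr4a1, Cish, Cd244, Ccr8, Qpct and Icos. The lists share members, so most of these calls are not separate from those of other lists. Ctla4, Nr4a1 and Cd244 are also in the inhibitory list and Icos in the costimulatory list. Runx3 and Bhlhe40 are also among the effector regulators, and Bhlhe40 among the other HIF targets. Ctla4, Bhlhe40 and Nr4a1 were the members that kept their calls when each spleen library was left out, and voom called 1 of the 28. Itgae, which encodes the CD103 integrin that binds E-cadherin, had 250 and 619 against 102 and 183. Its groups did not overlap, but the spread was large (log2 difference 1.52, SE 0.68, limma, adjusted p = 0.328). Cd69, which keeps T cells in tissue, had 2224 and 2791 against 1222 and 1244 and was not called (adjusted p = 0.484, limma). Nor was the chemokine receptor gene Cxcr6, with 14085 and 11551 against 7005 and 5520 (adjusted p = 0.0707, limma). With the spread from the 4 spleen libraries alone, Itgae and Cd69 were called (adjusted p = 0.0481 and 0.00868, limma), and so was Cxcr6. Of 18 alternatives, Itgae and Cd69 were called in 1 each and Cxcr6 in 5.

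Of 25 cytotoxicity genes, 3 rose and none fell, against 2.44% and 0.733% of all tested genes. Gzmc, a granzyme gene, went from 6.96 and 10.5 scaled counts in WT to 579 and 413 in VHL-deficient cells, a rise of 5.68 (SE 0.89, limma, adjusted p = 0.000407). Gzmb, the main granzyme of effector cells, had 5838 and 5469 against 1727 and 1236 (log2 difference 1.95, limma, adjusted p = 0.0467). Ctsc, the protease that activates granzymes, rose by 1.02. The calls of Gzmb and Ctsc were lost without any 1 of the 4 spleen libraries and under other scalings (recomputed size factors and those without ribosomal and mitochondrial genes for Gzmb, TMM for Ctsc), and voom called none of the 25. The NK cell marker sum moved with these genes, at 7315 and 4304 scaled counts against 2409 and 2158, of which Gzma, which both lists hold, made up 7185 and 4163 against 1927 and 1752. Klra8 was at 0 in all 4, and the part of NK cells in the result was not tested. Perforin, the pore-forming protein encoded by Prf1, had 637 and 790 against 626 and 508 scaled counts, and Ifng had 62.6 and 78.8 against 76.5 and 90.1. Neither was called, and the values of Ifng overlapped. None of 16 cytokine and chemokine genes passed the test by limma or voom, and 1 had an unadjusted p under 0.05.

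Receptors of the costimulatory and inhibitory lists moved in both directions. Of 17 costimulatory genes, 5 rose and 2 fell, against 2.44% and 0.733% of all tested genes. Tnfrsf9, which encodes 4-1BB, had 262 and 275 scaled counts against 22.3 and 46.1, a rise of 3.02 (SE 0.34, limma, adjusted p = 7.70e-06). Slamf7 had 3214 and 2580 against 605 and 562, a rise of 2.30. Icos, Tnfrsf18, which encodes GITR, and Tnfsf9, the ligand of 4-1BB, also rose, by 1.31 to 3.02. Tnfsf8, the CD30 ligand gene, had 96.1 and 96.8 against 262 and 297 and fell by 1.52. Crtam, an adhesion receptor of activated CD8 cells, fell by 3.30.

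Of 20 inhibitory receptor and related genes, 5 rose and 2 fell, against 2.44% and 0.733% of all tested genes. Ctla4 had 1193 and 1362 scaled counts against 255 and 139, a rise of 2.75 (SE 0.31, limma, adjusted p = 7.24e-06). Lag3, Tigit, Cd244 and the transcription factor gene Nr4a1 rose by 1.06, 0.91, 2.80 and 2.14. Btla, an inhibitory receptor of the immunoglobulin family, ran the other way, with 2.23 and 20.5 against 177 and 192, a log2 difference of -4.47 (SE 0.78, limma, adjusted p = 0.00121). Cd160, which shares its ligand HVEM with BTLA, had 255 and 208 against 704 and 479. Pdcd1, which encodes PD-1, had 38 and 54.1 against 44.5 and 46.1, groups that overlapped, with a log2 difference of 0.002 (SE 0.40) whose sign turned with the scaling. The CD4 T cell marker sum was 1332 and 1485 against 381 and 290. Ctla4 made up 1193 and 1362 of it in VHL-deficient libraries, but only 255 and 139 in WT libraries. Cd4 and Foxp3 reached at most 8.94. Without each spleen library in turn, Tnfrsf9, Slamf7, Tnfsf8, Ctla4 and Nr4a1 kept their calls. The other members called in these lists did not, and Tigit also lost its call under the 3 other scalings. With voom, Nr4a1 lost its call as well.

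Memory and homing genes leaned to lower values in VHL-deficient cells. Of 16 genes of memory and stem-like cells, Bcl2 rose and Myb and Ccr7 fell, with a list median of -0.72. Over all tested genes 2.44% rose and 0.733% fell. The VHL-deficient values lay below the WT values for 8 of the 16 and above them for 3. By limma 7 of the 16 had an unadjusted p under 0.05. Bcl2, which blocks apoptosis, had 2443 and 2724 scaled counts against 1141 and 1064, a rise of 1.23 (SE 0.22, limma, adjusted p = 0.00216). Its antagonist Bcl2l11, which encodes BIM, had 62.6 and 64.0 against 164 and 162 and fell by 1.35. Ccr7, the receptor that leads T cells into lymph nodes, had 91.6 and 114 against 621 and 597, a log2 difference of -2.56 (SE 0.52, limma, adjusted p = 0.00559). It was the single call among 20 genes of circulation and homing. Of these 20, the VHL-deficient values lay below the WT values for 11 and above them for 5. The shares over all tested genes were 19.8% and 23.7%. An unadjusted p under 0.05 by limma was found for 6 of the 20. Tcf7, the transcription factor gene of stem-like CD8 cells, had 306 and 366 against 1251 and 1364. The groups did not overlap, and the gene did not pass the test (log2 difference -1.96, SE 0.62, limma, adjusted p = 0.101). It passed when the spread was estimated from the 4 spleen libraries alone, from these and the unsplit day 7 tumor libraries, and with a replicate block, and adjusted p-values ran from 8.34e-05 to 0.439 over the alternatives. Klrg1, a marker of short-lived effector cells, was low, with 6.7 and 11.5 against 11.1 and 11.5. The call of Bcl2l11 was lost without any 1 of the 4 spleen libraries and that of Ccr7 without replicate 1 of either genotype. That of Myb was lost without VHL-deficient replicate 2 or WT replicate 1. All 4 calls, that of Bcl2 among them, were lost with voom.

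Of 17 effector regulators, Nfil3, Bhlhe40, Gata3 and Runx3 rose and Ikzf3 fell. Nfil3, a basic leucine zipper repressor, had 554 and 664 scaled counts against 72.4 and 38.8, a rise of 3.49 (SE 0.32, limma, adjusted p = 4.02e-07). Gata3 had 2049 and 1843 against 910 and 868, a rise of 1.13. The calls of Gata3, Runx3 and Ikzf3 were lost without any 1 of the 4 spleen libraries, that of Runx3 also under the 3 other scalings and that of Ikzf3 with TMM scaling. Of 34 proliferation genes, 1 fell and none rose, with a list median of -0.61 against 0.04 for all tested genes. The VHL-deficient values lay below the WT values for 16 of the 34 and above them for 3. The shares over all tested genes were 19.8% and 23.7%. By limma 7 of the 34 had an unadjusted p under 0.05. The member that fell, Ccne2, encodes a cyclin of S phase entry and had 2.23 and 1.64 against 11.1 and 38.8. With 3 reads in the VHL-deficient group, its ratio was 0.0669 (exact 95% interval 0.0133 to 0.209, counting error only), and its call was lost without replicate 2 of either genotype or with the 4 spleen libraries alone. Mki67, the proliferation marker, had 210 and 190 against 220 and 253 (log2 difference -0.24, limma, adjusted p = 0.810). Kif11, Espl1, Sgo1 and Anln, cell division genes outside the list, were also called lower. None of them kept its call when each spleen library was left out in turn.

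Most interferon-response genes had lower values in VHL-deficient spleen cells, and few passed the test. Of 24 tested, 4 fell and 1 rose, against 0.733% and 2.44% of all tested genes, and 22 had a negative difference. The list median was -1.14 on the log2 scale, against 0.04 for all tested genes, and 16 had an unadjusted p under 0.05 by limma. Ifit2, which encodes an inhibitor of viral translation, had 8.94 and 37.7 scaled counts against 150 and 135, a log2 difference of -2.87 (SE 0.54, limma, adjusted p = 0.00279). Ifit3 had 38 and 16.4 against 150 and 118, and Oasl1 had 2.23 and 16.4 against 62.6 and 58.7. In each of these genes both VHL-deficient libraries lay below both WT libraries. Samd9l was the exception that rose, with 1587 and 1281 against 434 and 712. Zbp1, Rsad2, Rtp4, Irf9 and Irf7 were not called, with log2 differences of -1.06 to -2.20 and adjusted p-values of 0.0564 to 0.0793 by limma. All 5 were called with a replicate block and without the second VHL-deficient nonTrm library, and Zbp1 also under the 3 other scalings. Zbp1, Rtp4, Irf9 and Irf7 were called as well when the spread came from the 4 spleen libraries alone, so that the number of calls in the list depends on these choices. Samd9l lost its call under TMM scaling, with recomputed size factors, and without any spleen library but WT replicate 2. By voom none of the 24 was called.

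Ifnar2, a chain of the type I interferon receptor, also fell. It had 69.3 and 100 scaled counts against 497 and 408, a log2 difference of -2.42 (SE 0.30, limma, adjusted p = 3.20e-05). Ifnar2 kept its call under every alternative, whereas each of the 4 interferon-response genes that fell lost it when 1 of the spleen libraries was left out. The Ifi200 genes, a cluster of DNA-sensor genes that interferon induces, were grouped after their values were seen. Of 10 tested, Ifi206, Ifi208, Ifi209, Ifi213 and Ifi214 fell, by 1.07 to 1.83 on the log2 scale. Ifi214 had 101 and 149 against 488 and 329, and was the one that kept its call when each library was left out. Of 10 Gbp genes, all had negative differences and Gbp3 fell, with 55.9 and 48.4 against 170 and 167, a call lost without VHL-deficient replicate 2 and with voom. Of 8 Schlafen genes, another family that interferon induces, none was called by limma or voom, 3 had an unadjusted p under 0.05 by limma, and the median was -0.49. In unsplit day 7 tumor the medians of the interferon, Ifi200 and Gbp genes were -0.12, -0.01 and 0.37. The interaction was called for none of them (lowest adjusted p = 0.209, limma), with an unadjusted p under 0.05 for 9 of the interferon list, 6 of the Ifi200 and 4 of the Gbp genes, so that a difference between the tissues was not shown.

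The promoter of Ifit3 holds the interferon-stimulated response element, in the form TTTC, any 2 bases, TTTC, which was searched on both strands and stands in 2.98% of all windows of 250 bases. The stretch is printed with the matches in capitals, as an example of the group that fell. The Ifit2 and Oasl1 windows hold no match, and the check was void for the list, since 18 of its 24 genes had a RefSeq promoter. Of those 18, 7 held the element (38.9%), against 3.32% of the tested genes with a promoter.

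Ifit3, chr19:34583353-34583436, plus strand: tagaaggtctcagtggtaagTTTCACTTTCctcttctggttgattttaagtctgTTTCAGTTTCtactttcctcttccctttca

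**Figure D4:**
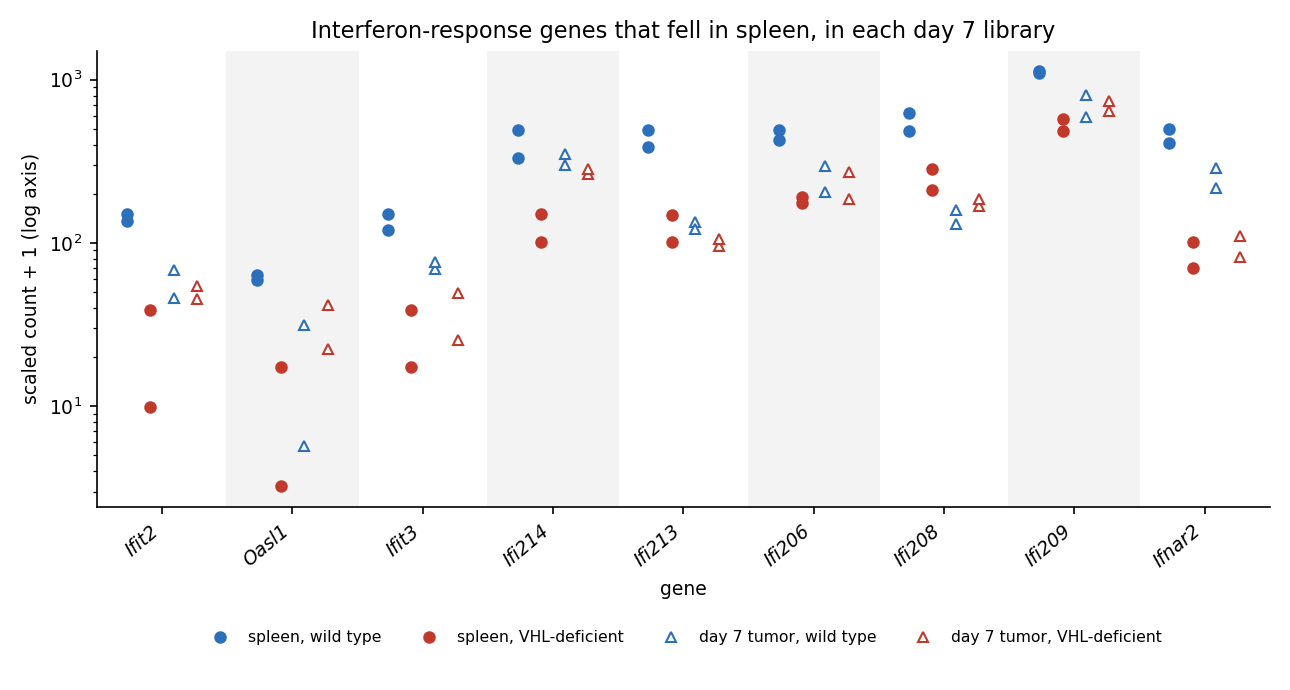
Scaled count plus 1, on a log axis, of 3 interferon-list genes, 5 Ifi200 genes and Ifnar2, all called lower in VHL-deficient spleen cells, in each day 7 library. Circles are spleen and triangles unsplit day 7 tumor libraries, blue WT and red VHL-deficient, with 2 libraries per group. In spleen both red points lie below both blue points for each gene, while in tumor Ifnar2 was called lower and the other 8 genes were not.

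Several large changes lay in other genes. H2-Ab1, the beta chain gene of an MHC class II molecule, had 534 and 437 scaled counts against 5.57 and 1.05, a rise of 7.05 (SE 0.57, limma, adjusted p = 8.44e-08). Its partner chain gene H2-Aa had 11.2 and 13.1 against 0 and 5.24, and the invariant chain gene Cd74 had 24.6 and 2.46 against 2.78 and 2.10. Of 12 class II genes tested, H2-Ab1 and H2-Oa rose, and the other members were not called. H2-Oa lost its call without any 1 of the 4 spleen libraries. Of the B cell genes, Pax5 and Ms4a1 were near 0 in the same libraries, while Cd79b had 306 and 267 against 173 and 99.5 and Ighm 308 and 297 against 1042 and 1070. The dendritic cell sum was 860 and 1156 against 932 and 1283, and the part of either cell type was not tested. Itga7, which encodes a laminin-binding integrin chain, had 467 and 734 against 1.39 and 1.05. Igf1r, the receptor of insulin-like growth factor 1, had 532 and 481 against 13.9 and 18.9, a rise of 4.88.

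Ppp2r3a, a regulatory subunit of protein phosphatase 2A, rose by 4.12. Emilin2, an extracellular matrix glycoprotein gene, rose by 5.15, and Rgs11, a regulator of G protein signaling, by 4.69. Prr5l, a binding partner of mTORC2, rose by 4.09 and the orphan receptor gene Gpr141 by 4.01. The metallothionein genes Mt1 and Mt2, which bind zinc and copper, both rose. Mt2 had 71.5 and 39.4 scaled counts and no WT read, at least 15.2-fold higher. Emilin2, Rgs11, Prr5l and Gpr141 kept their calls under every alternative. Mt1 and Mt2 kept theirs when each spleen library was left out but lost them with voom.

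Of the other genes that fell, Samd3 had 17.9 and 27.9 scaled counts against 178 and 209, a log2 difference of -3.05 (SE 0.43, limma, adjusted p = 0.000113). Art2b, an ADP-ribosyltransferase gene of the T cell surface, had 6.70 and 10.7 against 310 and 237. Cd7 had 46.9 and 77.9 against 383 and 338, and Ctse, which encodes the protease cathepsin E, had 181 and 212 against 781 and 670. Chd3, a chromatin remodeler gene, and Sidt1, a transmembrane protein gene, had log2 differences of -2.46 and -2.45. Ighm, the immunoglobulin heavy chain constant gene, had 308 and 297 against 1042 and 1070, while Arl4d, Adgrg5, Pigk and Traf5 fell by 1.82 to 2.52 on the log2 scale. Cd5, which dampens T cell receptor signaling, had 262 and 252 against 580 and 527. Klrc2, an NK receptor gene, had 53.6 and 45.9 against 156 and 179. Of the 105 genes that fell, 8 kept their calls under every alternative: Samd3, Art2b, Ctse, Chd3, Sidt1, Ifnar2, Tnfsf8 and Ifi214.

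The same genotypes were then compared in unsplit tumor cells of day 7, whose libraries stood in the same plate column as those of spleen by their well names. There 241 genes rose (1.68%) and 32 fell (0.223%), together 1.91% of those tested. Of the 350 genes that rose in spleen, 113 also rose in tumor, which is 32.3% of the spleen list and 46.9% of the tumor list. Of the 105 that fell, 9 also fell in tumor (8.57% and 28.1%). None was called in the opposite direction. In tumor, 93.7% of the genes that rose in spleen had a positive difference, against 51.7% of all tested genes, and their median was 1.34. Of the genes that fell in spleen, 75.2% had a negative difference in tumor, against 48.2% of all tested genes, with a median of -0.44. In day 11 tumor, 641 genes rose (4.47%) and 343 fell (2.39%), together 6.87%. Among them were 181 of the 350 genes that rose in spleen (51.7% of these and 28.2% of the day 11 list) and 21 of the 105 that fell (20% and 6.12%), while 2 of the 105 rose. The difference between spleen and day 11 tumor was not tested.

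WT spleen cells held less glycolytic RNA than WT tumor cells. The WT level was lower in spleen for all 21 glycolysis genes, with medians of 360 and 1062 scaled counts. VHL-deficient spleen cells had a median of 1350, above the WT tumor level for 16 of the 21, and VHL-deficient tumor cells had 4770.5, above the VHL-deficient spleen level for all 21. In bulk samples fewer expressing cells and less RNA per cell cannot be told apart. For the 15 members that rose in spleen, the genotype difference was larger in spleen than in tumor in every case, but that set was chosen by its spleen values. Over all 21, it was larger in spleen for 16. Among the other HIF targets the difference was higher in spleen for 14 of 29, and among all tested genes for 7350 of 14327.

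The test of the difference itself called 10 genes: for 7 the genotype difference was higher in spleen (0.0489% of tested genes) and for 3 it was lower (0.0209%), together 0.0698%. Slc16a3 had 5511 and 4454 scaled counts in VHL-deficient and 736 and 722 in WT tumor cells, a rise of 2.76. Its spleen difference was larger by 2.92 on the log2 scale (limma, adjusted p = 0.0148). Tpi1 rose by 1.69 in tumor, from 3807 and 5385 to 15093 and 14163, and its spleen difference was larger by 2.62 (limma, adjusted p = 0.0359). Nfil3 had 709 and 756 against 498 and 491 in tumor, where it was not called, and its spleen difference was larger by 2.93 (limma, adjusted p = 0.0159). Ctla4 had 5895 and 4455 against 3804 and 3666 in tumor, with a difference larger in spleen by 2.30 (limma, adjusted p = 0.0470). For these 4 genes the WT level was several-fold lower in spleen than in tumor.

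Bnip3l showed the reverse pattern. In tumor it had 1395 and 1331 scaled counts against 299 and 275, a rise of 2.24, and its spleen difference minus its tumor difference was -1.53 on the log2 scale (limma, adjusted p = 0.0469). These 10 calls were unstable. With the first or the second VHL-deficient library of unsplit tumor left out, limma called no gene, and 913 and 1068 genes had an unadjusted p under 0.05. With WT replicate 2 of unsplit tumor left out, 0 were higher and 1 lower, and with WT replicate 2 of spleen left out, 2 were higher and 0 lower, none of them among the 10. Slc16a3 and Nfil3 were called in 15 of 21 alternatives each, Tpi1 in 14, Bnip3l in 8 and Ctla4 in 6.

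**Figure D5:**
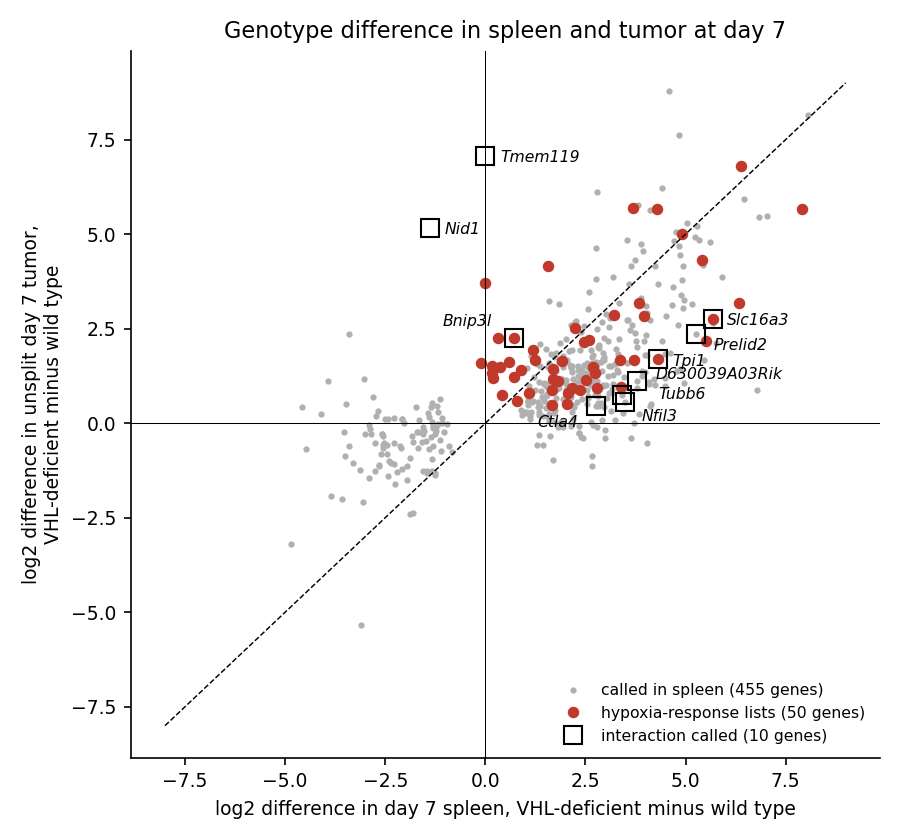
Log2 genotype difference, VHL-deficient minus WT, in day 7 spleen (x axis) and unsplit day 7 tumor (y axis). Grey points are the 455 genes called in spleen, red points the 50 tested genes of the hypoxia-response lists, and black squares the 10 genes whose differences were called unequal between the tissues; the dashed line marks equal differences. Most called genes that rose in spleen lie below the line, with smaller differences in tumor, but these genes were chosen by their spleen values. Over all tested genes the difference was higher in spleen for 7350 of 14327. Tmem119 and Nid1 have almost no reads in spleen.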

How the data were processed

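RNA-seq was made from P14 CD8 T cells sorted into lysis buffer, in 22 libraries of 10 groups. Per the submitters' processing notes the authors used STAR, featureCounts and DESeq with the mm10 build, with no version or order stated there. The deposited signal values are reads divided by a size factor of the library, plus 1, as the file itself shows: after the offset of 1 was removed, 100% of values were whole multiples of 1 read within 0.01 read. The offset was removed to give scaled counts and, from them, the reads of each library (3375558 to 7484400 in spleen).

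The tested genes were those that reached a scaled count of 10 in 2 or more of the 22 libraries (14327 of 46297 rows). The values log2(scaled count + 1) were fitted with limma 3.58.1 in R 4.3.3, with 1 mean for each of the 10 groups and all 22 libraries in the fit, which left 12 residual degrees of freedom, and with a prior variance that follows the mean level. P-values were adjusted by Benjamini-Hochberg over all tested genes, and values under 0.05 were taken as calls. Log2 differences are on the log2(scaled count + 1) scale, which understates the change of low genes. Genes with no read in a group were set against a floor of 3 reads per library, and intervals are exact at 95%; both cover counting error only. The fit was tested on simulated data.

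The genes named were fixed genes, up to 15 called genes per direction with the largest differences at above-median level, up to 4 called members of each list (else its 2 most abundant), and called interaction genes. A few genes of this rule are not reported here. Other genes named, and the families of Ifi200, Gbp, Schlafen, metallothionein and phosphatase-targeting genes, were chosen after their values were seen. The members and lists were chosen with earlier results of these data known. Gene positions are from GENCODE M21 and promoters from RefSeq GRCm38.p6, where 217 genes were matched by an older symbol. Alternatives covered scaling, filters, pseudocounts, the variance model, the libraries in the fit and each left-out library.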

Additional observations from a re-analysis of the deposited data

Results flagged for a closer look

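The genotype difference was called unequal between day 7 spleen and unsplit day 7 tumor for 10 genes, by the interaction test of the limma fit. Values are the log2 difference in spleen minus that in tumor. It was 2.93 for Nfil3, a transcriptional repressor, and 2.92 for the lactate exporter gene Slc16a3, as described above. It was 2.62 for Tpi1, 2.3 for Ctla4 and -1.53 for the mitophagy receptor gene Bnip3l.

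Prelid2, a gene of the PRELI lipid-transfer family, had a value of 2.91 (limma, adjusted p = 0.0445). It had 199 and 151 scaled counts in VHL-deficient and 5.57 and 2.10 in WT spleen cells, against 513 and 518 and 72 and 136 in tumor. Tubb6, a beta-tubulin gene, had a value of 2.67, with 103 and 139 against 11.1 and 9.43 in spleen. The unnamed gene model D630039A03Rik had a value of 2.66, with 203 and 200 against 13.9 and 13.6 in spleen. All 3 rose in spleen, and none of their spleen groups overlapped.

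Nid1, which encodes the basement membrane protein nidogen 1, had a value of -6.55, and Tmem119 had -7.07. These 2 values rest on genes that were nearly silent in spleen. Nid1 had 0 and 2.46 scaled counts in VHL-deficient and 2.78 and 5.24 in WT spleen cells, and 67.6 and 58.3 against 2.18 and 0 in unsplit tumor. Tmem119 had no read in any spleen library, and 156 and 114 against 0 and 0 in unsplit tumor, so that its fitted value is no measure of size. As given in the comparison of the tissues, no gene stayed called when either VHL-deficient tumor library was left out.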

How the results depend on the processing

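In day 7 spleen the counts stayed within 1.5 times of the 350 and 105 reported under the other scalings, the filters of 10 in the spleen libraries and of 30, both pseudocounts, the fit without a trend and the fits on the 4 spleen or 8 day 7 libraries. The genes that fell numbered 215 with a filter of 1 read. Without the second VHL-deficient nonTrm library, which stood apart, 181 fell in spleen, 71 in unsplit tumor and 659 at day 11. Leaving out each library of a tissue gave 191 to 251 genes higher and 29 to 120 lower in spleen, and 88 to 295 higher and 6 to 36 lower in unsplit tumor; there the lone library is assumed to vary like the other groups. Voom, chosen after seeing the data as were the left-out tumor libraries, gave 135 and 41 in spleen and 144 and 17 in unsplit tumor. With the 8 day 7 libraries 49 fell in unsplit tumor, and with the filter of 1 read 223 fell at day 11.

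For the interaction, 7 higher and 3 lower became 5 and 0 with the filter of 1 read, and 1 lower with either stricter filter. They became 11 higher at a pseudocount of 0.5, 4 and 1 at 5, 1 and 0 without a trend, 14 and 1 with the 8 libraries, 14 higher without the nonTrm library, and 2 and 0 with voom. Leaving out each library gave 0 to 11 higher and 0 to 12 lower.

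Same-numbered libraries had deviations correlated at 0.118 in spleen, 0.0291 in unsplit tumor, 0.236 in Trm, 0.271 in nonTrm and 0.0427 to 0.105 at day 11. The day 11 groups, with 3 pairs, were not over 0.1 in each pair, so the numbers were not taken as a pairing. With a replicate block the calls were 503 higher and 243 lower in spleen, 474 and 104 in unsplit tumor, 1019 and 735 at day 11, and 47 and 64 for the interaction.

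Among uncalled genes named above, the difference of Pdcd1 in spleen turned to -0.0436 with TMM, -0.0340 with recomputed size factors, -0.0284 without ribosomal and mitochondrial genes and -0.140 with voom, and ran from -0.25 to 0.25 when each spleen library was left out. So did that of Klrg1 (-0.68 to 0.018), Hk1 (-0.15 to 0.77) and Pfkm (-0.060 to 0.38), and that of Pfkm in spleen turned to -0.0066 with voom. The planned edgeR and DESeq2 fits were not run.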
